A study of Mus musculus with 6 samples.

Results

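The genes described here act in the adhesion and fusion of myoblasts, and they were followed in muscle stem cells (MuSCs) from injured mouse muscle. They are 9 of the 49671 genes in the deposited files. Cdh15, Cdh2, Ncam1, Dysf, Myof, Cav3, and Kirrel were found by symbol. Myomaker (Mymk) and myomixer (Mymx) are listed under their older symbols Tmem8c and Gm7325. The rule names the genes by symbol and uses no measured value, although it was written with earlier results of these data known, and all 9 had enough counts to be tested. RNA-Seq libraries were made from 6 female C57BL/6 mice aged 4 to 6 months, 3 in each group, with 1 library per mouse. All mice received BaCl2, which destroys myofibers, in both tibialis anterior muscles and were killed 3 days later. RvD1-treated mice were given 100 ng of resolvin D1, a lipid mediator made from docosahexaenoic acid, by daily IP injection, and vehicle-treated mice received 0.1% ethanol. Both muscles of a mouse were pooled, and the sorted cells carried CXCR4 and β1-integrin and lacked CD45, CD11b, Ter119, and Sca-1, with CD31 as a further excluded marker in the labels. No uninjured MuSCs were analysed here, so that every value describes cells sorted from injured muscle.

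When a myofiber is lost, MuSCs divide, become myoblasts, and fuse with each other or with damaged fibers. Cells first adhere through cadherins and immunoglobulin-type receptors, and the muscle-specific membrane proteins myomaker and myomixer then drive the merging of the membranes. Ferlins and caveolins act at the plasma membrane, in vesicle fusion, membrane repair, and the caveolae of muscle.

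Transcription of muscle genes in differentiating myoblasts is driven by MyoD and myogenin, which bind the E-box CANNTG. Promoters, taken from RefSeq on GRCm38.p6 as the 250 bases before and 50 after each annotated start, were matched for 5 of the 9 members (Cdh15, Kirrel, Dysf, Myof, and Cav3). The pattern CANNTG reads the same on both strands and was searched in 32851 promoters of 300 bases, of which 72.3% held it. The promoters of Cdh15, with 4 E-boxes, and of Cav3, with 2, are shown because they hold the most among the members, and capitals mark the E-boxes, none of which overlap. The promoter of Cdh15 lies at chr8:122848124-122848423 and that of Cav3 at chr6:112459255-112459554, both on the plus strand. GENCODE M21 starts the Cdh15 gene at 122847966, before its RefSeq window, so that the 4 E-boxes lie within the gene there. Both windows are printed 5′ to 3′.
Cdh15: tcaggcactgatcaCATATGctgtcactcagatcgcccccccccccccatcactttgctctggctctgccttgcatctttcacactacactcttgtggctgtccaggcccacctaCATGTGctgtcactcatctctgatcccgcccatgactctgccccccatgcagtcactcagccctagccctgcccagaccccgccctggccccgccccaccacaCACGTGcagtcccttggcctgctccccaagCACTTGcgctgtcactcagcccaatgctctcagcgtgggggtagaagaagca
Cav3: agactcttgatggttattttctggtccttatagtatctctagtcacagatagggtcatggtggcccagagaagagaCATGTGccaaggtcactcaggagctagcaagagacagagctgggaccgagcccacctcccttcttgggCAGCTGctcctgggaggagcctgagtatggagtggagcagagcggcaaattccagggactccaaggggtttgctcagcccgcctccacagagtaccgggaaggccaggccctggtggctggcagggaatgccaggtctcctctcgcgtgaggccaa
At least 4 E-boxes were held by 6.49% of all promoters. In Cav3, the E-box 106 bases before the start is CAGCTG, a form held by 16.3% of all promoters. None of the E-boxes of Cdh15 has this form. Of the 2 annotated Dysf promoters, the downstream promoter held 1 E-box and the other 0, and CANNTG does not occur in the windows of Kirrel and Myof. These matches are descriptions of the sequence, and binding was not measured.

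Total expected counts, the read counts estimated by RSEM, ranged from 17962025 to 28149176 in RvD1 libraries and from 16148026 to 18755643 in vehicle libraries. The 9 MuSC markers examined were all present, with a summed level of 2223 to 2570 TPM (a level scaled for transcript length and library size). Transcripts that mark other cells were also present, and in none of the 6 lists for them was a marker at 0 counts in every library. Summed levels were 1048 to 2283 TPM for 8 fibro-adipogenic markers, 288 to 588 TPM for 7 smooth muscle and pericyte markers, 38.1 to 81.2 TPM for 7 Schwann cell markers, 40.9 to 90.8 TPM for 10 leukocyte markers, and 7.38 to 24.3 TPM for 8 endothelial markers. Most of the smooth muscle and pericyte sum was Acta2, at 250 to 512 TPM. In sorted pools such as these, fewer cells of a type and less RNA per cell cannot be told apart.

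The genes spanned a 64.5-fold range of mean TPM, and the order of their levels was largely shared by all libraries. Cdh15 (365 TPM over the 6 libraries) and Mymk (309 TPM) were the highest. Next came Cdh2 (143 TPM), Ncam1 (119 TPM), Myof (105 TPM), and Mymx (89.8 TPM), and then Cav3 (14.2 TPM), Kirrel (12.5 TPM), and Dysf (5.67 TPM). Mymk was above Cdh2, Mymx above Cav3, and Kirrel above Dysf with ranges that did not meet. The other neighbors overlapped, among them Cdh15 and Mymk, which exchanged places in 1 of 6 libraries, and Cav3 and Kirrel, which did so in 2. Cdh15 lay above 96.5% of all 14494 genes tested, whereas Dysf lay above 33%.

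**Figure D1:**
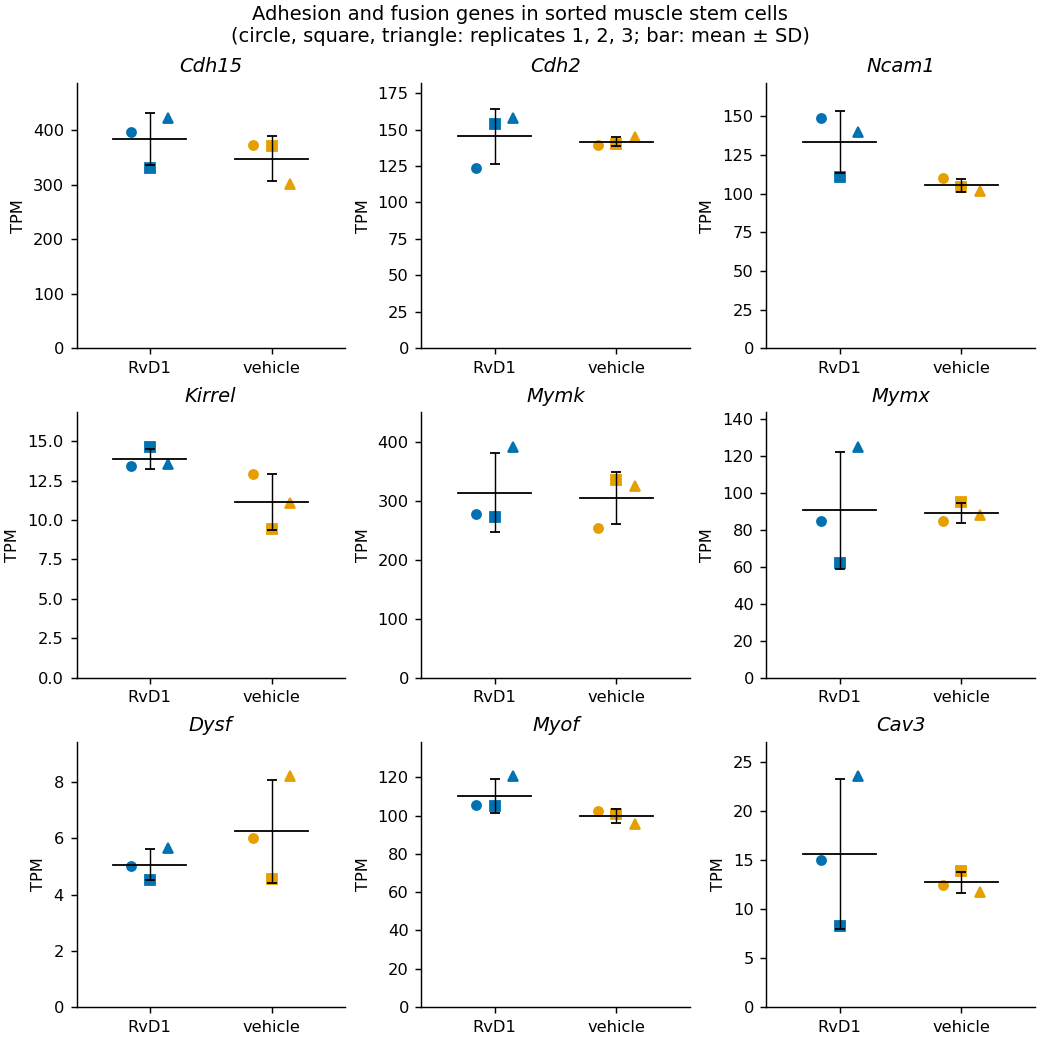
Level of each adhesion and fusion gene in each library, in TPM on axes that start at 0, with the mean and SD of 3 mice per group. RvD1 and vehicle points interleave for Cdh15, Cdh2, Mymk, Mymx, Dysf, and Cav3, and all 3 RvD1 points lie above the vehicle points for Ncam1, Kirrel, and Myof.

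RvD1 was compared with vehicle to ask whether the program of adhesion and fusion differed in MuSCs of treated mice. By edgeR's quasi-likelihood test, which estimates the spread of each gene with the help of all others, 0 of the 9 members had an adjusted p under 0.05, as did 0% of the 14494 genes tested. An unadjusted p under 0.05 was found for 0 members, against 3.47% of all genes. DESeq2 and limma-voom also gave 0 members with an adjusted p under 0.05. Of the members, 6 had a log2 fold change above 0 and 3 below 0, where 53.5% of all genes were above 0. On log2(TPM + 1), Cdh2 and Mymk turned upward to 0.03, and Dysf turned downward to −0.23. There the median over all genes was higher than in edgeR, at 0.0769. In edgeR, the log2 fold changes of the members lay between −0.08 for Mymx and 0.21 for Ncam1, with a median of 0.06 (0.01 over all genes). In CPM (counts scaled to a common library size) with TMM factors, the groups did not overlap for 1 member, Ncam1, against 9.62% of all genes. In TPM they did not overlap for 3 members, Ncam1, Kirrel, and Myof, against 11.4% of all genes.

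The 95% intervals give the range of differences that remains plausible with these 6 libraries. Myof was measured most closely, with an interval of −0.10 to 0.28 on the log2 scale, followed by Ncam1, Cdh15, and Cdh2, whose intervals reached at most 0.26 to either side of the estimate. For Kirrel, Mymk, Dysf, and Mymx the half-width was between 0.30 and 0.47. Cav3 was the least certain, with an interval of −0.54 to 0.93, that is from a 0.689-fold to a 1.90-fold level with RvD1. Differences within these bounds remain possible at this number of mice, and the bounds are not limits of detection. For Myof, the biological coefficient of variation estimated by edgeR was 0.0936, which only 1.86% of all genes tested fell below, and for Cav3 it was 0.287, above 79.9% of genes.

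**Figure D2:**
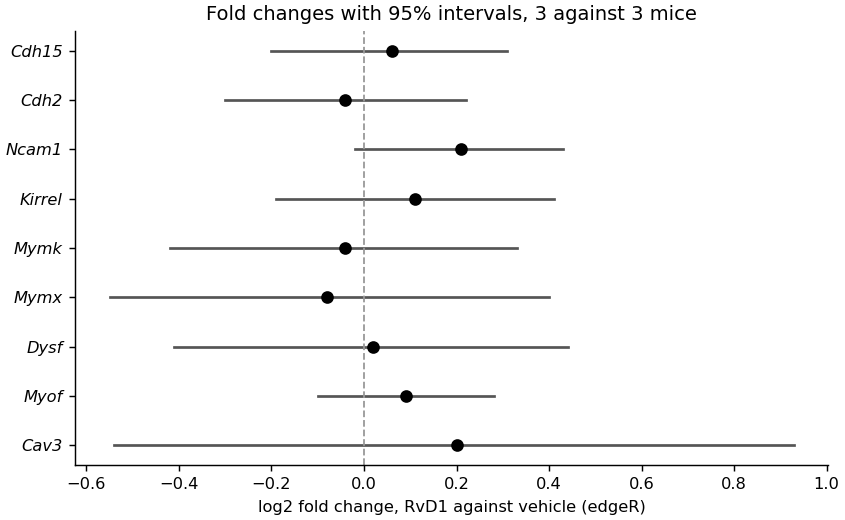
Log2 fold change of each gene in RvD1 against vehicle libraries from edgeR (points) with 95% intervals (lines). Every interval includes 0 (dashed line), and they widen from Myof and Ncam1 to Cav3.

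The cadherins join neighboring myoblasts through calcium-dependent contacts. Cdh15 encodes M-cadherin, the classical cadherin that marks MuSCs and myoblasts (ENSMUSG00000031962, chromosome 8 of GRCm38, 122847966 to 122867397, plus strand). Its levels were 396, 331, and 423 TPM in RvD1 replicates 1, 2, and 3 and 372, 370.1, and 300.3 TPM in vehicle replicates 1, 2, and 3. The lowest value was that of vehicle replicate 3 and the highest that of RvD1 replicate 3, and the groups overlapped. Means were 383 ± 47.1 TPM with RvD1 and 347 ± 40.9 TPM with vehicle (SD, n = 3 each), and the log2 fold change was 0.06 (standard error 0.11; edgeR's quasi-likelihood test, adjusted p = 0.971). The annotated gene Gm20388 overlaps Cdh15 on its strand, with 852 to 1355 expected counts, but the Cdh15 counts were whole numbers in all 6 libraries, so no read was divided between them.

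Cdh2 encodes N-cadherin, which is shared with neural and mesenchymal cells (ENSMUSG00000024304, chromosome 18 of GRCm38, 16588877 to 16809246, minus strand). It stood at 124, 154, and 158 TPM with RvD1 and at 139.5, 139.9, and 145 TPM with vehicle. RvD1 replicate 1 was the lowest and RvD1 replicate 3 the highest, so that the vehicle libraries lay inside the RvD1 range. The means were 145 ± 18.7 TPM and 141 ± 3.06 TPM (SD, n = 3), and the log2 fold change was −0.04 from counts (standard error 0.12; edgeR adjusted p = 0.983) and 0.03 from log2(TPM + 1). The balance between the cadherins was read within each library, where scaling has no part. N-cadherin transcripts amounted to 0.313, 0.464, and 0.374 of M-cadherin transcripts with RvD1 and to 0.375, 0.378, and 0.483 with vehicle. The log2 ratio differed by −0.111 between the groups (exact permutation test, two-sided, p = 0.5, adjusted p = 0.75 over 3 ratios, where the smallest p that 3 against 3 allows is 0.1). Cdh15 was thus the more abundant cadherin in every library.

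Ncam1 and Kirrel encode surface receptors with immunoglobulin domains. Ncam1, the neural cell adhesion molecule that myoblasts express as they differentiate, lies on chromosome 9 of GRCm38 (ENSMUSG00000039542, 49502136 to 49798925, minus strand). With RvD1 it was at 149, 111, and 139.9 TPM and with vehicle at 110.2, 104, and 102 TPM. RvD1 replicates 1 and 3 stood clear of the vehicle libraries, and RvD1 replicate 2 lay just above vehicle replicate 1. The means were 133 ± 19.97 TPM and 105 ± 4.32 TPM (SD, n = 3). Before scaling for length, the levels were 326, 251, and 289 CPM with RvD1 and 250.1, 241, and 240.3 CPM with vehicle. Its log2 fold change was 0.21 (standard error 0.10), with a 95% interval of −0.02 to 0.43. The unadjusted p was 0.0663 and the adjusted p was 0.971 (edgeR's quasi-likelihood test). Ncam1 had the smallest unadjusted p among the members. Without RvD1 replicate 1, its log2 fold change was 0.13, and without RvD1 replicate 2, it was 0.29. An antisense gene, Gm11149, overlaps Ncam1 and had 5.29 to 16.4 expected counts, and the Ncam1 counts were not whole numbers in any of the 6 libraries (tolerance 0.001), so some reads were divided with other genes or sites.

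Schwann cells also express NCAM, and their markers were read beside Ncam1. The summed level of 7 Schwann cell markers was 81.2, 45.2, and 59.1 TPM in RvD1 replicates 1, 2, and 3 and 45.3, 41.9, and 38.1 TPM in the vehicle replicates. All 7 had a higher mean with RvD1, and none was at 0 in every library. A higher mean with RvD1 was also found for all 7 smooth muscle and pericyte markers and for 8 of 9 MuSC markers. It was found for 7 of 8 fibro-adipogenic, 7 of 10 myofiber, 2 of 10 leukocyte, and 2 of 8 endothelial markers. These counts compare mean TPM, and on log2(TPM + 1) the median log2 fold change over all genes was also above 0, at 0.0769. Myod1, counted as higher here, had an edgeR log2 fold change of −0.02. The order of the libraries by the summed Schwann cell markers was the same as by Ncam1 TPM apart from RvD1 replicate 2 and vehicle replicate 1, which exchanged places. The smooth muscle and pericyte sum was also highest in RvD1 replicates 1 and 3, at 588 and 434 TPM, and lowest in RvD1 replicate 2, at 288 TPM. Most of that sum was Acta2, at 512, 250, and 378 TPM in RvD1 replicates 1, 2, and 3. Summed fibro-adipogenic markers were likewise highest in RvD1 replicate 1, at 2283 TPM, but RvD1 replicate 2 was the lowest library at 1048 TPM. The part of these cells in the level of Ncam1 was not tested.

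**Figure D3:**
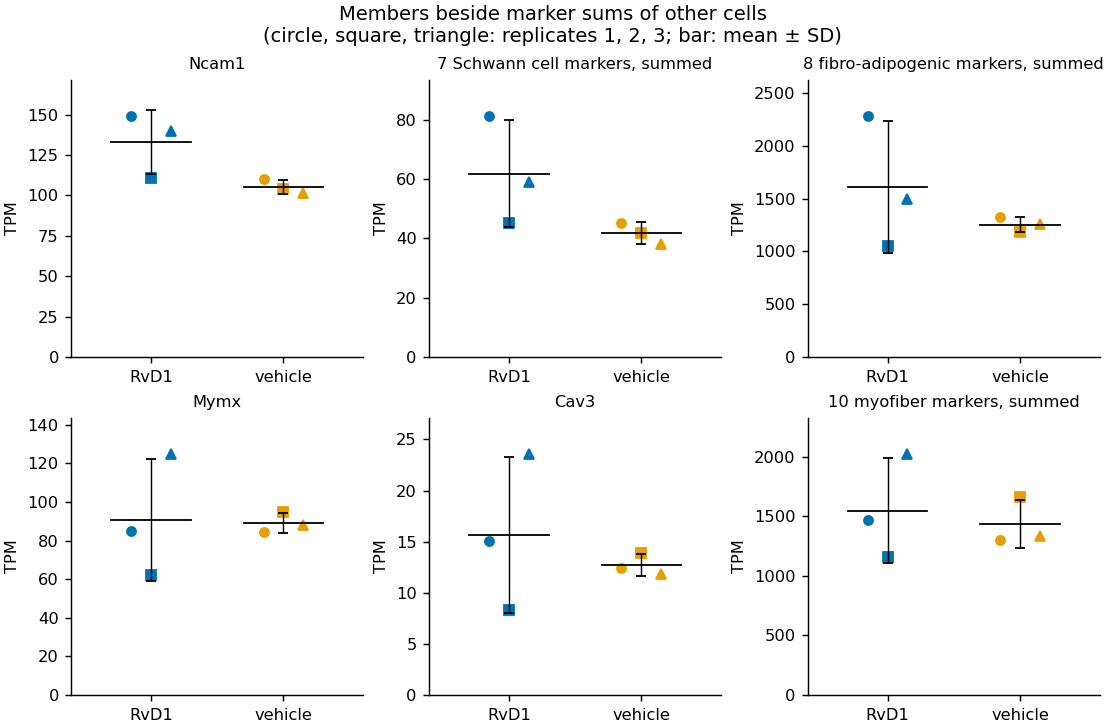
Ncam1, Mymx, and Cav3 in each library beside the summed TPM of marker lists for Schwann cells, fibro-adipogenic cells, and myofibers, with means and SD. RvD1 replicate 1 (circle) is highest for Ncam1 and for Schwann cell and fibro-adipogenic markers, and RvD1 replicate 3 (triangle) is highest for Mymx, Cav3, and myofiber markers.

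Kirrel, a receptor of the nephrin family whose fly relatives mediate myoblast recognition, is on chromosome 3 (ENSMUSG00000041734, 87078593 to 87174747, minus strand). It was at 13.45, 14.6, and 13.6 TPM with RvD1 and at 12.9, 9.41, and 11.1 TPM with vehicle, without overlap between the groups. Means were 13.9 ± 0.655 TPM and 11.15 ± 1.76 TPM (SD, n = 3). In CPM the groups overlapped, at 53.8 ± 5.04 CPM and 48.7 ± 7.72 CPM (SD, n = 3), and the log2 fold change was 0.11 (standard error 0.13; edgeR adjusted p = 0.971), against 0.30 from log2(TPM + 1). The separation was therefore present only after the counts were divided by effective length, whose values are given with those of the other members.

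Myomaker and myomixer are the muscle fusogens, and they are needed together for complete fusion. Mymk (ENSMUSG00000009214, chromosome 2 of GRCm38, 27061636 to 27072179, minus strand) was at 277, 273, and 391 TPM with RvD1 and at 254, 335, and 325 TPM with vehicle. The highest library belonged to RvD1 and the lowest to vehicle, and between them the other 2 RvD1 libraries lay below the other 2 vehicle libraries. The means of 313 ± 67.1 TPM and 305 ± 44.5 TPM (SD, n = 3) differed by less than either SD, and the log2 fold change was −0.04 (standard error 0.17; edgeR adjusted p = 0.988). On log2(TPM + 1) the sign was the opposite, at 0.03.

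Mymx encodes the small membrane protein also known as myomerger or minion (ENSMUSG00000079471, chromosome 17 of GRCm38, 45600971 to 45602102, minus strand). Its RvD1 libraries were at 84.8, 62.1, and 125 TPM and its vehicle libraries at 84.4, 94.8, and 88.0 TPM. RvD1 libraries thus held both the lowest and the highest value. The means were 90.5 ± 31.7 TPM and 89.1 ± 5.29 TPM (SD, n = 3), and the log2 fold change was −0.08 (standard error 0.21; edgeR adjusted p = 0.981). Within libraries, there were 0.306, 0.228, and 0.319 Mymx transcripts for each Mymk transcript with RvD1 and 0.333, 0.283, and 0.271 with vehicle. This ratio differed by −0.066 on the log2 scale (exact permutation test, two-sided, p = 0.8, adjusted p = 0.8). The fusogens were therefore expressed in all 6 mice at a ratio that stayed within 0.228 to 0.333.

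The ferlins are large calcium-binding membrane proteins, of which myoferlin acts in myoblast fusion and dysferlin in the repair of the sarcolemma. Myof (ENSMUSG00000048612, chromosome 19 of GRCm38, 37899036 to 38043577, minus strand) was at 106, 105, and 120.5 TPM with RvD1 and at 103, 101, and 95.5 TPM with vehicle. All RvD1 libraries exceeded the vehicle libraries in TPM. The means were 110.4 ± 8.78 TPM and 99.8 ± 3.80 TPM (SD, n = 3), and the log2 fold change was 0.09 (standard error 0.08; edgeR adjusted p = 0.971). In CPM scaled by TMM the groups overlapped.

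Dysf (ENSMUSG00000033788, chromosome 6 of GRCm38, 84008590 to 84211060, plus strand) was the lowest member, at 5.03, 4.53, and 5.66 TPM with RvD1 and at 6.01, 4.57, and 8.21 TPM with vehicle. Vehicle replicate 3 stood apart at the top, and the groups overlapped. The means were 5.07 ± 0.566 TPM and 6.26 ± 1.83 TPM (SD, n = 3), lower with RvD1, whereas in CPM they were 16.0 ± 3.72 and 15.4 ± 1.48 (SD, n = 3). The log2 fold change was 0.02 from counts (standard error 0.19; edgeR adjusted p = 0.995) and −0.23 from log2(TPM + 1). Dysferlin transcripts amounted to 0.0476, 0.0432, and 0.0470 of myoferlin transcripts with RvD1 and to 0.0585, 0.0452, and 0.0860 with vehicle. The log2 ratio differed by −0.412 (exact permutation test, two-sided, p = 0.3, adjusted p = 0.75). It differed by −0.165 without vehicle replicate 3, by −0.629 without vehicle replicate 2, and by −0.092 in CPM, which are not scaled for length. Myoferlin was the far more abundant ferlin in every library.

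Cav3 encodes caveolin-3, the caveolin of muscle fibers, which appears as myoblasts differentiate (ENSMUSG00000062694, chromosome 6 of GRCm38, 112459505 to 112472872, plus strand). It rested on 135 to 275 expected counts per library. Its levels were 15.04, 8.29, and 23.6 TPM with RvD1 and 12.5, 13.9, and 11.8 TPM with vehicle. The vehicle libraries lay close together, between RvD1 replicate 2 and RvD1 replicate 1. The means were 15.6 ± 7.65 TPM and 12.7 ± 1.09 TPM (SD, n = 3), and the log2 fold change was 0.20 (standard error 0.32; edgeR adjusted p = 0.971). Without RvD1 replicate 3, it was −0.22, so that the direction rested on that library. The summed level of 10 myofiber markers, which include skeletal actin (Acta1) and muscle creatine kinase (Ckm), had the same extremes as Cav3 and Mymx. It was 1470.0 TPM in RvD1 replicate 1, 1154 TPM in RvD1 replicate 2, and 2020 TPM in RvD1 replicate 3, and between 1301 and 1663 TPM with vehicle. These markers also appear in differentiating myoblasts, and what part of Cav3 or Mymx came from differentiated cells was not tested.

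The effective transcript length that RSEM used for a gene in a library was recovered from its expected count and its FPKM, a level per length and depth. It shifts when reads are assigned to longer or shorter transcripts of the gene, which no level shows. Among 9478 genes with at least 100 counts and 2 FPKM in every library, the longest length was a median of 1.08 times the shortest. Cdh15, with 3185 to 3186 bases, and Cav3, with 1085 to 1087 bases, have 1 annotated transcript each in GENCODE M21 and were constant. Lengths were 3844 to 3879 bases for Cdh2, 1283 to 1312 bases for Mymk, 701 to 722 bases for Mymx, and 4015 to 4249 bases for Myof, all within 1.08-fold.

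Dysf and Kirrel varied more. The effective length of Dysf was 4572, 4875, and 5978 bases with RvD1 and 4240, 4768, and 3191 bases with vehicle. Its extremes were 1.87-fold apart, a wider span than in 99.7% of those genes. The coding transcripts of Dysf in GENCODE M21 have 6432 to 6803 bases, and all 6 libraries lay below these, while other annotated transcripts of the gene are as short as 404 bases. The annotation used by the authors is not given in the sources used here. Means were 5142 ± 739.7 bases with RvD1 and 4066 ± 802.8 bases with vehicle (SD, n = 3), a difference that did not pass the test (exact permutation test, two-sided, p = 0.2, adjusted p = 0.45 over 9 genes). Vehicle replicate 3, the highest in Dysf TPM, had the shortest length and, at 16.7 CPM, the second highest level before scaling for length, after RvD1 replicate 3 at 20.3 CPM. Without vehicle replicate 3 the difference in length was 638 bases, and without RvD1 replicate 3 it was 657.7 bases, against 1075.7 bases with all libraries.

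Kirrel, whose extremes were 1.22-fold apart, had lengths of 6845, 6322, and 5910 bases with RvD1 and of 7202, 7203, and 6476 bases with vehicle. The means of 6359 ± 468.5 and 6960 ± 419.1 bases (SD, n = 3) overlapped in their libraries (exact permutation test, two-sided, p = 0.2, adjusted p = 0.45). The difference of −601.4 bases was −377 bases without RvD1 replicate 3. The 3 annotated Kirrel transcripts have between 2160 and 7278 bases. For Ncam1, which has 7 annotated transcripts and is known for several isoforms by splicing, the lengths were 3599, 3657, and 3453 bases with RvD1 and 3677, 3657, and 3705 bases with vehicle. RvD1 replicate 2 was shorter than vehicle replicate 2 by 0.31 bases, while rounding of the FPKM allows up to 0.28 bases in each library, so that their order is not certain. Ncam1 lengths differed by −110.1 bases between the groups (two-sided exact permutation test, p = 0.1, adjusted p = 0.45, where 0.1 is the smallest p possible and rests on that order). Without RvD1 replicate 3, the difference was −51.7 bases.

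**Figure D4:**
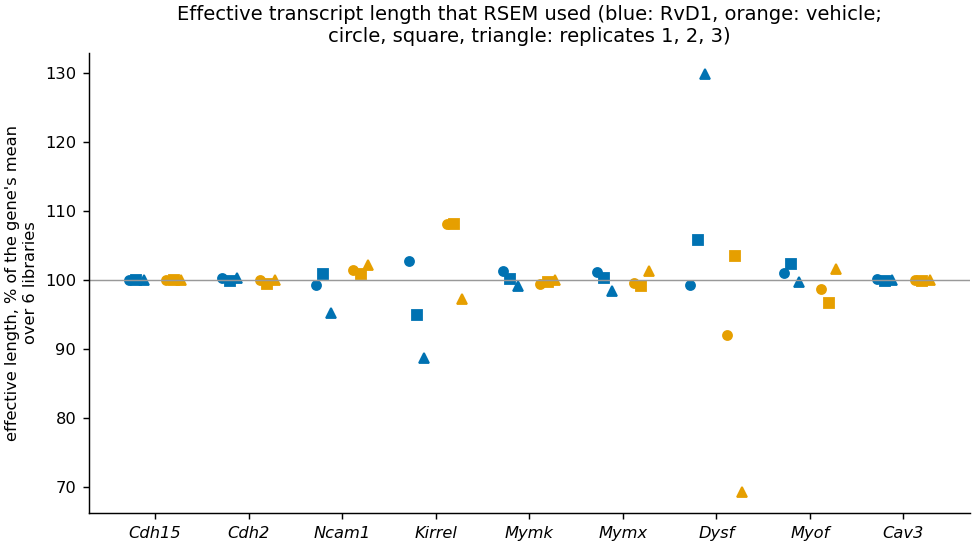
Effective transcript length of each gene in each library, as percent of that gene's mean over the 6 libraries (axis not from 0). Dysf spreads widest, with vehicle replicate 3 lowest and RvD1 replicate 3 highest, while Cdh15 and Cav3 are constant.

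Whether the members rose and fell together from mouse to mouse was examined in log2 CPM over the 6 libraries. Of the 36 pairs, 25 had a Pearson r above 0, the median r was 0.296, and 0 had an adjusted p under 0.05. The highest r was 0.925, between Mymx and Cav3 (Spearman rho 0.771; exact permutation test, p = 0.0306 and p = 0.103, adjusted p = 0.52 and 0.529). It fell to 0.116 without the 2 libraries farthest from the median of Mymx, RvD1 replicates 2 and 3, and thus rested on those libraries. For Mymk and Mymx, r was 0.774 and rho 0.771 (exact permutation test, p = 0.0528 and p = 0.103, adjusted p = 0.52 and 0.529), with r = 0.796 when the 2 libraries farthest from the median of Mymk were left out. Kirrel ran against Mymk, with r = −0.902 and rho = −0.657 (exact permutation test, p = 0.0708 and p = 0.175, adjusted p = 0.52 and 0.787), and r was −0.948 without the 2 libraries farthest from the median of Kirrel. On log2(TPM + 1), r between Kirrel and Mymk was −0.342. After subtraction of the group means, r was 0.98 for Mymx and Cav3, 0.774 for Mymk and Mymx, and −0.936 for Kirrel and Mymk.

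Genes whose pattern was most like that of Mymk over the 6 libraries were taken from 9164 genes with a mean of at least 10 CPM. They were Tnni2, the fast skeletal troponin I (r = 0.985), Mettl2 (r = 0.976), and Pdcd2l (r = 0.973). Myogenin ranked 787 at r = 0.703, MyoD 1012 at r = 0.67, and Pax7, the marker of undifferentiated MuSCs, 8900 at r = −0.815. For Cdh15 they were Frmpd1 (r = 0.998), Tor3a (r = 0.997), and Tmco3 (r = 0.969), with Myogenin at rank 392 (r = 0.738), MyoD at rank 4999 (r = −0.0898), and Pax7 at rank 3190 (r = 0.177). With 6 libraries and 9164 genes, these values are given as a description of these libraries.

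The regulators of differentiation give the state of the cells in which the members were measured. Myog was at 972, 870, and 1378 TPM with RvD1 and at 851, 974, and 818 TPM with vehicle. Its log2 fold change was 0.20 (standard error 0.16; edgeR adjusted p = 0.971). Myod1 was at 239, 382, and 470.0 TPM with RvD1 and 325, 343, and 376 TPM with vehicle, and its log2 fold change of −0.02 (standard error 0.22; edgeR adjusted p = 0.995) turned to 0.01 on log2(TPM + 1). Pax7 was low, at 8.5, 4.68, and 4.58 TPM with RvD1 and 6.63, 4.03, and 4.03 TPM with vehicle. RvD1 replicate 1 had the lowest Myod1 and the highest Pax7, and RvD1 replicate 3, in which Mymk, Mymx, Cav3, and Cdh15 were highest, had the highest Myog. Of 8 myogenic regulators, 7 had a log2 fold change above 0 and 1 below 0, with a median of 0.14, and 0 had an adjusted p under 0.05.

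Other genes of adhesion and fusion were followed in 5 lists. In none of them did a gene have an adjusted p under 0.05, and an unadjusted p under 0.05 was found for 3 of the 56 genes tested, where 3.47% of all genes had one. Among 7 partners and relatives of the cadherins, 6 had a log2 fold change above 0, with a median of 0.07. Cdh11, a mesenchymal cadherin, had the largest, at 0.61 (standard error 0.22; edgeR unadjusted p = 0.0223, adjusted p = 0.971). It was at 10.1, 3.96, and 7.36 TPM with RvD1 and at 3.60, 3.30, and 4.55 TPM with vehicle. It was highest in RvD1 replicate 1, the library with the highest sum of fibro-adipogenic markers. The largest parts of that sum were Col3a1 (806 TPM) and Col1a2 (585 TPM). Of the same list, Ly6a was highest in vehicle replicate 1 (39.7 TPM) and Pdgfra in RvD1 replicate 3 (3.55 TPM). The other markers of the list were highest in RvD1 replicate 1. The part of fibro-adipogenic cells in the difference of Cdh11 was not tested.

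Of 16 further surface receptors of fusion, 11 could be tested, 7 above and 4 below 0, with a median of 0.06. The largest log2 fold change was that of Kirrel3, a relative of Kirrel, at 0.50 (standard error 0.32; edgeR adjusted p = 0.971). It was at 1.55, 1.40, and 1.23 TPM with RvD1 and at 1.16, 0.620, and 1.04 TPM with vehicle. Nephrin (Nphs1), Kirrel2, the phosphatidylserine receptors Adgrb1 and Adgrb3, and Stab2 had mean counts of 0 to 9.83 per library, too few for the test. The 20 signaling and actin genes, among them Rac1 and Dock1, had a median of 0.02. The largest log2 fold change among them was that of Elmo1, an activator of Rac with Dock1, at 0.55 (standard error 0.28; edgeR adjusted p = 0.971). It fell to 0.15 without RvD1 replicate 1, in which it was 7.36 TPM against 3.05 to 3.84 TPM in the other libraries.

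Genes linked to the ferlins and to membrane repair had a median log2 fold change of −0.12, with 4 of 11 above 0 and 7 below 0. Fer1l5, a ferlin related to dysferlin and myoferlin, differed most in size, at 1.36 (standard error 0.46; edgeR unadjusted p = 0.0172, adjusted p = 0.971). It was rare, with 30, 18, and 18 expected counts in RvD1 libraries and 6, 6, and 8 in vehicle libraries, and the groups did not overlap. Anxa1, chosen after its values were seen, encodes annexin A1, a ligand of the receptor Fpr2 that RvD1 also uses. It was at 1082, 1068, and 1090.0 TPM with RvD1 and at 1185, 1192, and 1179 TPM with vehicle. Its log2 fold change was −0.22 (standard error 0.08; edgeR unadjusted p = 0.0221, adjusted p = 0.971). In CPM scaled by TMM, the groups did not overlap for 4 of the 11 genes, against 9.62% of all genes tested. These were Fer1l5, higher with RvD1, and Anxa1, Anxa2 (log2 fold change −0.13), and S100a10 (−0.21), lower with RvD1. In TPM, the groups overlapped for Anxa2 and S100a10. By the same CPM, the groups did not overlap for 1 of 7 cadherin partners and relatives and 1 of 11 surface receptors. It was 3 of 20 for the signaling and actin genes and 0 of 7 for the caveola genes. The log2 fold change was 0.06 for Anxa5 and −0.04 for Anxa6. Of 7 other caveola genes, 2 were above 0 and 5 below 0, with a median of −0.05, and the largest log2 fold change was 0.11 for Ptrf, which encodes cavin-1 (edgeR adjusted p = 0.971).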

How the data were processed

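From RNA of the sorted MuSCs, the study obtained single-ended reads of 76 bases. Per the labels, the authors used STAR 2.5.0a with mm10 for alignment and RSEM for quantification. Expected counts were deposited as RSEM gave them, without scaling for depth. The TPM and FPKM deposited beside them take account of effective transcript length and library size. The annotation is not given in the sources used here, and the methods call the data single-stranded without a strand setting for the counting. A count of 3 corresponds to 0.107 to 0.186 CPM, a floor for counting error only.

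The expected counts, rounded to integers, entered edgeR 4.0.16 (TMM, filterByExpr, quasi-likelihood test, Benjamini-Hochberg adjustment over all 14494 genes tested, threshold 0.05). The study used limma-voom with surrogate variables removed before the linear fit, which was run as an alternative (limma 3.58.1, sva 3.50.0), as was DESeq2 1.42.0. These tests were checked on simulated counts with 200 genes changed 4-fold, and smaller changes were not simulated. Recovered were 167 genes by edgeR with 17 false calls and 165 by DESeq2 with 26. Limma-voom with surrogate variables recovered 160 with 20 false calls. Intervals are 95% from the edgeR fit. Log2 CPM used a prior count of 2. Single values were compared by exact permutation over the 6 libraries. Effective length is the expected count divided by FPKM and by the library total. Gene positions come from GENCODE M21 on GRCm38, and overlapping or antisense genes are named only where counts bear on a member.

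The members and gene lists were chosen with earlier results of these data known. Named are all members, the gene of each list with the largest log2 fold change in either direction, Pax7, Myod1, and Myog, and the 3 genes most like Mymk and Cdh15. Anxa1 was added outside this rule, after its values were seen. Separate mice gave the libraries of a group.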

Additional observations from a re-analysis of the deposited data

How the results depend on the processing

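Under all-library alternatives (library totals, no filter, DESeq2, limma-voom, sva, and log2 TPM or FPKM), 191 of 204 fold changes kept their direction and side of the threshold, 13 turned, and 0 became called. Those counted as kept include values that fell to about 0. Cav3, at 0.20 in the main fit, was 0.01 with limma-voom and 0 with sva. Mymk was 0 with sva, and Dysf was 0 with a replicate block in edgeR. Ncam1, Kirrel, and Myof kept their direction throughout. The values that turned were Myod1 (0.01 with library totals, TPM + 1, and TPM + 0.1, 0.06 with sva), Dysf (−0.03 with limma-voom, −0.23 with TPM + 1, −0.26 with TPM + 0.1, −0.25 with FPKM + 1), Cdh2 (0.03 with sva, TPM + 1, and TPM + 0.1), and Mymk (0.03 with TPM + 1 and TPM + 0.1). Genes called by edgeR rose from 0 to 12 without the filter (5 higher, 7 lower) and were 0 to 1 when 1 library was left out (1 without RvD1 replicate 3). With sva, the unadjusted p was 0.00564 for Ncam1 and 0.0317 for Myof, but limma's adjusted p was 0.272 and 0.387. The median r was 0.248 in log2 TPM and 0.38 with group means subtracted. The causes of these changes were not tested.

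Leaving out 1 library gave log2 fold changes of −0.22 to 0.49 for Cav3, −0.03 to 0.13 for Cdh15, −0.11 to 0.08 for Cdh2, −0.20 to 0.12 for Dysf, −0.22 to 0.05 for Mymk, −0.35 to 0.12 for Mymx, −0.02 to 0.31 for Myog, −0.23 to 0.22 for Myod1, and −0.16 to 0.44 for Pax7. Those of Kirrel were 0.03 (without vehicle replicate 2) to 0.23 (without vehicle replicate 1), of Myof 0.04 (without RvD1 replicate 3) to 0.14 (without RvD1 replicate 1), and of Ncam1 0.13 to 0.29. It gave differences in log2 ratio of −0.258 to 0.027 for Cdh2 to Cdh15, −0.629 to −0.165 for Dysf to Myof, and −0.157 to 0.086 for Mymx to Mymk, and differences in effective length of −153.8 to −51.7 bases for Ncam1, −844.4 to −377 bases for Kirrel, 638 to 1426.6 bases for Dysf, −0.5 to 13.6 bases for Mymk, and −4.6 to 5.2 bases for Mymx.

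Replicate numbers are shared by the groups but belong to different mice. Deviations of same-numbered libraries correlated at 0.31, −0.00071, and 0.126, so the numbers were not taken as pairs. With a replicate block, 0 genes and 0 members were called by edgeR (896 genes at an unadjusted p under 0.05). With 3 mice per group, differences inside the printed intervals remain possible, and these intervals are not limits of detection.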
